A study of Mus musculus with 6 samples.

Results

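The genes described here are 36 symbols of blood vessel endothelium among the 51826 gene symbols of the count files. They were chosen by symbol, as known markers of endothelial cells in general, of capillaries, or of arteries and sprouting tip cells, and all 36 were found. The counts come from total RNA of mammary basal cells of pubertal C57B6/N mice with the genotype SMAcreERT2/N1ICD, a Cre recombinase that tamoxifen activates, named for smooth muscle actin, combined with an allele of the Notch1 intracellular domain, the active part of that receptor. Tamoxifen was given to every mouse once, at postnatal day 21, and the glands were taken at day 24, 72 hours on. Each of 3 pools of 2 to 3 mice yielded 1 library of sorted cells with GFP (GFPpos) and 1 without (GFPneg), 6 libraries in all. The 2 fractions of a pool form a pair, and both groups carry the same genotype and treatment. Which cells of these mice become GFP-positive is not given in the sources used here beyond the names of the alleles, and no library of labelled cells without the Notch1 allele was analysed here.

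Endothelial cells line every blood vessel and are held together by the cadherin that Cdh5 encodes. Their identity rests on transcription factors of the ETS family, such as Erg and Fli1, and of the SoxF group (Sox7, Sox17 and Sox18). Vascular endothelial growth factor acts on them through the receptors encoded by Kdr and Flt1, and Notch signalling is known to set arterial against venous character and to limit the number of tip cells at growing sprouts. Capillaries of fat-rich tissue such as the mammary gland carry Gpihbp1, which anchors the enzyme that releases fatty acids from lipoproteins. The venules through which lymphocytes leave the blood, called high endothelial venules, carry sulphated mucins and chemokines of their own.

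The basal identity given by the labels was seen in all 6 libraries. Krt5, a basal keratin gene, lay at 1446, 1734 and 1016 CPM (counts scaled to depth, on the TMM-adjusted library size) in GFPneg replicates 1, 2 and 3 and at 1066, 1148 and 713 CPM in GFPpos replicates 1, 2 and 3, and values below follow this order. Endothelial RNA was counted beside it: Pecam1 and Cdh5, defining genes of endothelium, exceeded 100 CPM in every library. Depth set GFPneg replicate 1 apart, and endothelial content was highest in GFPpos replicate 3. The libraries held 9912610 to 16043492 gene counts, except GFPneg replicate 1, which held 611465. In that library 5 abundant noncoding features took 69.2% of gene counts, against 22.7% to 34.7% in the others. One count equalled 3.28 CPM in that library and 0.0513 to 0.0911 CPM in the others, so that levels under about 10 CPM in it rest on 3 counts or fewer. The 36 genes took 0.638% of all gene counts in GFPpos replicate 3 and 0.179% to 0.291% in the other 5 libraries. In TMM-scaled CPM their sum was 3872, 2397 and 1614 in GFPneg and 2176, 1935 and 5237 in GFPpos libraries. On that scale GFPneg replicate 1 came next after GFPpos replicate 3. In sorted bulk RNA, a larger number of endothelial cells and more RNA per endothelial cell cannot be told apart.

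As a group the endothelial genes were not shifted in 1 direction. Among general endothelial genes, Pecam1, Cdh5 and Plvap had higher means in GFPpos libraries, and Erg, Egfl7, Kdr, Flt1 and Tek had lower means. For each of these the groups overlapped in TMM-scaled CPM. Several genes of capillaries, arteries and sprouts (Gpihbp1, Rgcc, Sema3g, Bmx and Aplnr), together with the sialomucin gene Podxl, were between 4.12 and 24.4 times lower in the mean of GFPpos libraries. None of the 33 members with enough counts passed edgeR's quasi-likelihood test over all 13873 genes (Benjamini-Hochberg adjusted p below 0.05), in which 0.0577% of genes were called higher and 0.00721% lower. DESeq2 called 1 member lower (Sema3g), with 0.346% of all genes lower and 0.36% higher. Limma-voom called 2 lower (Sema3g and Podxl), with 0.173% of all genes lower and 0.389% higher. At an unadjusted p below 0.05 edgeR had 6 members lower (18.2% of 33, against 2.88% of all genes) and 1 higher, Cd34 (3.03%, against 2.38%). The 6 were Gpihbp1, Rgcc, Sema3g, Bmx, Aplnr and Podxl. The members were chosen with earlier results of these data known, and Aplnr passed the filter on counts through the GFPneg libraries alone. Nothing is therefore read from these shares. The same holds for the shares of the other gene lists below, which were chosen with the same knowledge.

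Calls depended on the pairing and on GFPneg replicate 1. With the replicate number as a block, Sema3g was called lower (edgeR, adjusted p = 0.00735), where 0.13% of all genes were lower and 0.31% higher. Without GFPneg replicate 1, all 36 members passed the filter on low counts, and Sema3g (0.0343) and Podxl (0.0122) were called lower, with 0.19% of all genes lower and 0.412% higher. The block fit on pairs 2 and 3 alone called 12 members higher and 4 lower, at 2.52% and 1.41% of all genes. That fit has 2 pairs, and few residual degrees of freedom, so its p-values lean on the variance borrowed from other genes. The 12 were Pecam1, Cdh5, Erg, Cd300lg, Eng, Robo4, Ramp2, Plvap, Mmrn2, Ecscr, Cd34 and Aqp1, and the 4 were Gpihbp1, Rgcc, Sema3g and Podxl.

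**Figure D1:**
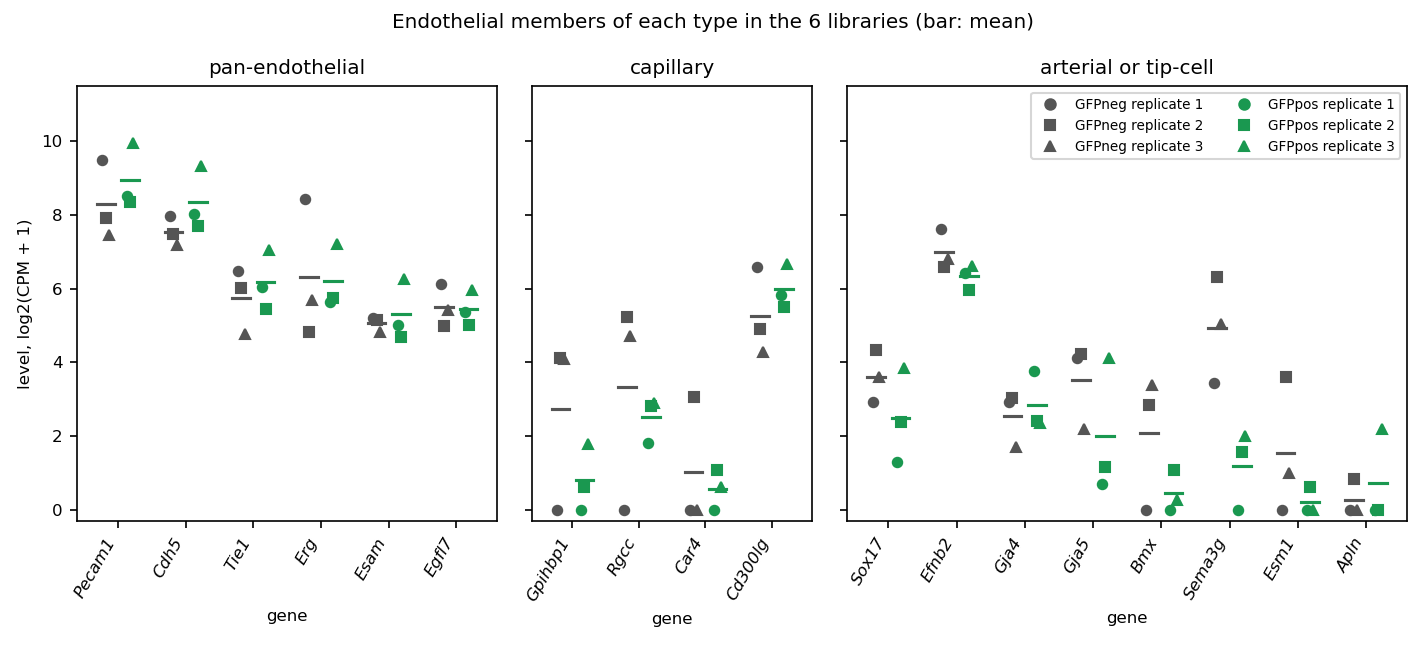
Level of each pan-endothelial, capillary and arterial or tip-cell gene, as log2(CPM + 1) on the vertical axis, in the 3 GFPneg libraries (grey) and the 3 GFPpos libraries (green), with marker shape for the replicate and a bar for the group mean. The groups overlap for 17 of these 18 genes, and Sema3g is the exception.

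Promoter sequences are given for 4 members that stand for the patterns below: Sema3g and Rgcc, which were lower in GFPpos libraries of pairs 2 and 3, the growth factor receptor gene Kdr, and Cldn5, whose group means differed little. Each is the stretch of 250 bases that ends just before the RefSeq transcript start (GRCm38.p6), written 5′ to 3′ on the gene's strand, and RefSeq promoters were matched for 21 of the 36 genes. They lie at chr14:31217623-31217872, plus strand (Sema3g), chr14:79301636-79301885, minus strand (Rgcc), chr5:75978456-75978705, minus strand (Kdr) and chr16:18776597-18776846, plus strand (Cldn5). Capitals mark matches, on either strand, to CCGGAAG (an ETS core), GTGGGAA (the core bound by RBPJ, the DNA-binding partner of Notch) or AACAAT (a SOX core). The core promoter motif TATAAA was searched too, and no match in the 4 sequences overlaps another.
Sema3g: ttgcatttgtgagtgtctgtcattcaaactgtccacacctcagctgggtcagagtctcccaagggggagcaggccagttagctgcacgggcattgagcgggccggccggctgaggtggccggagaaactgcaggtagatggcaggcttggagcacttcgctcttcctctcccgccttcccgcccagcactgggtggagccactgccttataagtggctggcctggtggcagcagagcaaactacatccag
Rgcc: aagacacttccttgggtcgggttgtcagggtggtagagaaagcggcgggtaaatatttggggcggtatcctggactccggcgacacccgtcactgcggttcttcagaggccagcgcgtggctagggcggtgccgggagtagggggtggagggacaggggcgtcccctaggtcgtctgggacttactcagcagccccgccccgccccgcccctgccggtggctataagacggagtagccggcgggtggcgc
Kdr: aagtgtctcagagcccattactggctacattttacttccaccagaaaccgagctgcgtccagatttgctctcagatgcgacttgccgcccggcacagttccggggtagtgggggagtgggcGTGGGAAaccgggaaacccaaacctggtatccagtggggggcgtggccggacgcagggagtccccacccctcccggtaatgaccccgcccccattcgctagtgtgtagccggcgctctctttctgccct
Cldn5: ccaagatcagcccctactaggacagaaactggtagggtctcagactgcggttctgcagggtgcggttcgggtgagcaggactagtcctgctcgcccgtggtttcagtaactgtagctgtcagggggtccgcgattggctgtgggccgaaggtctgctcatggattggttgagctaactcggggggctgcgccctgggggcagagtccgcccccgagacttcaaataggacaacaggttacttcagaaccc
The Kdr window holds 1 RBPJ core, 129 to 123 bases before the start, and the windows of Sema3g, Rgcc and Cldn5 hold none of the 4 letter strings. Among the 21 genes, an RBPJ core was found for 2 (Tie1 and Kdr), a SOX core for 3 (Erg, Tek and Emcn), the ETS core for 1 (Car4) and the core promoter motif for 3 (Erg, Efnb2 and Flt1). Of all 32851 windows of this length, 5.42% hold the RBPJ core, 9.42% the SOX core, 6.91% the ETS core and 12.4% the core promoter motif. A match describes the letters of the window and is not a shown binding site.

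The summed level of the 6 pan-endothelial genes was 1505, 575 and 467 CPM in GFPneg and 812, 680.2 and 2040.2 CPM in GFPpos libraries, highest in GFPpos replicate 3 and next in GFPneg replicate 1. Pecam1 encodes an adhesion protein of endothelial junctions (chromosome 11, 106654217 to 106750628, mm10). It lay at 718, 242 and 176 CPM in GFPneg and 367, 324 and 981 CPM in GFPpos libraries, so that the groups overlapped (379 ± 296 against 558 ± 368 CPM, SD, n = 3). Its log2 fold change was 0.58 (SE 0.55, edgeR adjusted p = 1), and -0.11 without GFPpos replicate 3. With GFPneg replicate 1 kept, the direction for Pecam1 therefore rested on GFPpos replicate 3. Without GFPneg replicate 1 the log2 fold change was 1.43, and every GFPpos library was above both GFPneg libraries.

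Cdh5, the gene of vascular endothelial cadherin (chromosome 8, 104101625 to 104144511), was the 1 pan-endothelial gene that was higher in GFPpos libraries of all 3 pairs. It lay at 249, 177 and 145 CPM in GFPneg and 259.6, 205 and 644 CPM in GFPpos libraries, with a log2 fold change of 0.97 (SE 0.47, edgeR adjusted p = 0.988). The differences in pairs 1 and 2 were small, and GFPpos replicate 3 supplied most of the group difference, since the value without it was 0.30. Erg, an ETS transcription factor gene, stood apart in GFPneg replicate 1 (344, 27.2 and 50.4 against 48.7, 52.4 and 148 CPM). Its log2 fold change was -0.68 over 6 libraries and 1.12 without GFPneg replicate 1. The direction for Erg therefore rested on the shallow library, in which its level came from 105 counts.

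The receptor tyrosine kinase gene Tie1 (88.5, 64.2 and 26.1 against 64.9, 42.9 and 131 CPM) and the junction gene Esam (36.1, 34.2 and 27.5 against 31.1, 24.7 and 75.7 CPM) were lower in GFPpos libraries of pairs 1 and 2 and higher in pair 3. The secreted factor gene Egfl7 lay at 68.9, 30.6 and 42.1 against 40.05, 31.1 and 60.8 CPM, with overlapping groups. Its exons overlap those of Agpat2, Gm20532 and miR-126 genes in the annotation, so its counts are uncertain. The median log2 fold change of the 6 genes was 0.45, beside 0.15 over all genes tested. It was 0.97 without GFPneg replicate 1, 0.8 with scaling on library size only and -0.16 without GFPpos replicate 3. With GFPneg replicate 1 kept, its sign therefore rested on GFPpos replicate 3.

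Capillary genes did not share 1 direction. Gpihbp1, which encodes the capillary anchor of lipoprotein lipase (chromosome 15, 75596628 to 75599481), lay at 0, 16.3 and 16.1 CPM in GFPneg and 0, 0.545 and 2.44 CPM in GFPpos libraries. The counts behind these values were 0, 317 and 177 against 0, 7 and 47. GFPneg replicates 2 and 3 were both above every GFPpos library, and both libraries of pair 1 were at 0, where 3 counts would be 9.84 CPM in GFPneg replicate 1. The log2 fold change was -3.54 (SE 1.42, edgeR adjusted p = 0.839).

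Rgcc, a cell cycle regulator gene that is abundant in capillaries (chromosome 14, 79288756 to 79301645), was also higher in GFPneg replicates 2 and 3 than in every GFPpos library. It lay at 0, 36.7 and 25.2 CPM in GFPneg and 2.54, 5.99 and 6.49 CPM in GFPpos libraries, with a log2 fold change of -2.15 (SE 0.99, edgeR adjusted p = 0.937) and -2.61 (adjusted p = 0.0738) without GFPneg replicate 1. Car4, the gene of a membrane-bound carbonic anhydrase, was counted mainly in GFPneg replicate 2, with 0, 142 and 0 counts in GFPneg and 0, 14 and 10 in GFPpos libraries, and did not enter the test. In contrast, Cd300lg, whose product is known from capillaries and also from high endothelial venules, had a higher mean in GFPpos libraries. It lay at 95.1, 28.7 and 18.3 CPM in GFPneg and 55.8, 44.7 and 100.1 CPM in GFPpos libraries (log2 fold change 0.62, SE 0.64, edgeR adjusted p = 1), and without GFPneg replicate 1 every GFPpos library was above the GFPneg libraries.

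Of the 8 arterial or tip-cell genes, Sema3g showed the clearest separation. It encodes a secreted semaphorin of arterial endothelium (chromosome 14, 31217860 to 31230352). It lay at 9.84, 79.1 and 31.9 CPM in GFPneg and 0, 1.95 and 3.01 CPM in GFPpos libraries, from 3, 1541 and 350 against 0, 25 and 58 counts. Every GFPpos library was below every GFPneg library, and the means were 40.3 ± 35.4 and 1.65 ± 1.53 CPM (SD, n = 3), 24.4 times lower in GFPpos. The log2 fold change was -4.64 (SE 1.17, edgeR adjusted p = 0.332). The call was made with the replicate block, without GFPneg replicate 1, with DESeq2 (adjusted p = 0.00239) and with limma-voom (0.0367), and 9 of the alternative settings made it in all.

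Bmx, a kinase gene of arterial endothelium, lay at 0, 6.21 and 9.47 CPM in GFPneg and 0, 1.09 and 0.208 CPM in GFPpos libraries (log2 fold change -3.74, SE 1.65, edgeR adjusted p = 0.88). Esm1, a tip-cell proteoglycan gene, held 0, 216 and 11 counts in GFPneg and 0, 7 and 0 in GFPpos libraries and did not enter the test. In both genes GFPneg replicates 2 and 3 were above the GFPpos libraries and pair 1 was at 0 in each fraction. Apln, the gene of the peptide apelin, was near absent, with 15 counts in GFPneg replicate 2, 69 in GFPpos replicate 3 and 0 in the other 4 libraries.

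The other arterial genes did not separate the groups. Efnb2, the gene of the arterial ephrin-B2 ligand, was the most abundant of them per kilobase of exon and lower in GFPpos libraries of all 3 pairs, at 197, 94.3 and 109.9 against 84.7, 61.7 and 97.1 CPM (log2 fold change -0.69, SE 0.45, edgeR adjusted p = 1). The SoxF gene Sox17 lay at 6.56, 19.05 and 11.02 against 1.45, 4.20 and 13.2 CPM, lower in GFPpos libraries of pairs 1 and 2 and higher in pair 3. The connexin gene Gja5 lay at 16.4, 17.8 and 3.55 against 0.634, 1.24 and 16.4 CPM, in the same order. The connexin gene Gja4 lay at 6.56, 7.19 and 2.28 against 12.7, 4.28 and 4.15 CPM, higher in pairs 1 and 3. Their log2 fold changes were -1.02 (Sox17), -0.99 (Gja5) and 0.46 (Gja4), each with an edgeR adjusted p of 1.

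The median log2 fold change was -2.15 for the 3 tested capillary genes and -1.01 for the 6 tested arterial or tip-cell genes, beside 0.15 over all genes. Genes that pass the filter only through GFPneg libraries must differ, so these medians are a description of the genes that passed. Leaving out GFPpos replicate 3 moved the arterial median to -3.39, and leaving out both libraries of replicate 1, 2 or 3 moved it to -0.55, -0.31 or -2.54. Without GFPneg replicate 1 it was -1.02, and the capillary median -2.67.

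**Figure D2:**
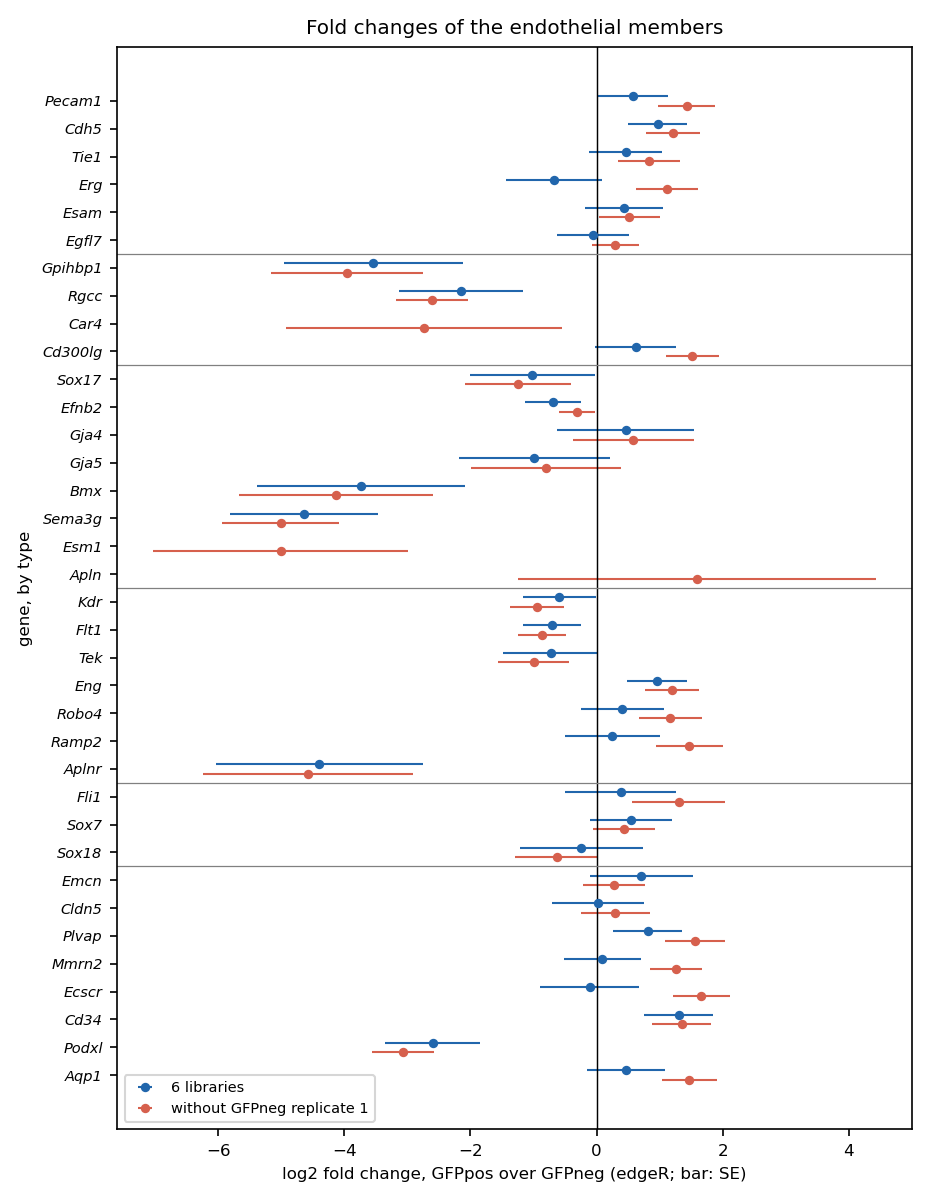
Log2 fold change of each member (GFPpos over GFPneg, edgeR, bar for the SE) over 6 libraries in blue and without GFPneg replicate 1 in red, with genes grouped by type from pan-endothelial at the top. Sema3g, Aplnr, Bmx, Gpihbp1, Podxl and Rgcc lie below -2 in both fits, and Erg, Egfl7 and Ecscr change sign between them.

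Receptor genes went both ways. Aplnr, the receptor gene of apelin (chromosome 2, 85136225 to 85139923), lay at 3.28, 8.68 and 4.28 CPM in GFPneg and 0, 0.622 and 0.156 CPM in GFPpos libraries, from 1, 169 and 47 against 0, 8 and 3 counts. Every GFPpos library was below every GFPneg library, with a log2 fold change of -4.40 (SE 1.64, edgeR adjusted p = 0.743), and DESeq2 with the replicate block called it lower (adjusted p = 0.0416), with 0.44% of all genes lower and 0.656% higher. Among the 33 tested members Sema3g and Aplnr had this order, beside 3.63% of all genes tested, and nothing is read from that share. Aplnr entered the test through the GFPneg libraries alone, and the places of Aplnr and Sema3g in GFPneg replicate 1 rest on 1 and 3 counts.

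The receptor genes for vascular endothelial growth factor were more abundant than Aplnr per kilobase of exon. Kdr (chromosome 5, 75932827 to 75978458), whose promoter window with the RBPJ core is shown above, lay at 36.1, 169.9 and 109 CPM in GFPneg and 39.8, 52.1 and 124 CPM in GFPpos libraries, and the groups overlapped. Flt1, a receptor that binds the factor tightly and dampens its action, lay at 148, 254 and 215 against 73.9, 97.8 and 210.4 CPM, lower in GFPpos libraries of all 3 pairs, though pair 3 differed little. Tek, the receptor gene for angiopoietins, lay at 13.1, 47.1 and 22.05 against 17.9, 6.54 and 27.04 CPM. Log2 fold changes were -0.59 (SE 0.58) for Kdr, -0.70 (SE 0.46) for Flt1 and -0.73 (SE 0.75) for Tek, each with an edgeR adjusted p of 1.

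The receptor genes Eng, Robo4 and Ramp2 were higher in GFPpos libraries of pairs 2 and 3 and lower in pair 1. Eng encodes endoglin, a co-receptor of the TGF-beta family, and lay at 141, 107 and 73.1 CPM in GFPneg and 137, 129 and 349.5 CPM in GFPpos libraries (log2 fold change 0.96, SE 0.48, edgeR adjusted p = 1). Robo4, an endothelial guidance receptor gene, lay at 91.8, 37.4 and 16.2 against 37.2, 43.3 and 99.3 CPM. Ramp2, a partner of the adrenomedullin receptor, lay at 108, 24.6 and 13.7 against 36.3, 28.9 and 92.7 CPM. In each of these genes GFPpos replicate 3 was above both deeper GFPneg libraries and GFPneg replicate 1 was above GFPpos replicates 1 and 2. Exons of Eng overlap those of Fpgs, and exons of Ramp2 those of Vps25.

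Of the transcription factor genes outside the arterial group, none separated the groups. The ETS gene Fli1 lay at 52.5, 18.2 and 6.10 CPM in GFPneg and 9.42, 19.8 and 59.8 CPM in GFPpos libraries. Sox7 lay at 19.7, 35.6 and 20.3 against 24.6, 25.3 and 62.8 CPM and Sox18 at 0, 20.3 and 7.29 against 6.98, 11.3 and 8.25 CPM. Their log2 fold changes lay between -0.24 (Sox18) and 0.55 (Sox7), with an edgeR adjusted p of 1 each.

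Among surface genes, Podxl and Cd34, which encode sialomucins of one family, went in opposite directions. Podxl encodes podocalyxin (chromosome 6, 31519488 to 31563981). It lay at 13.1, 221 and 114 CPM in GFPneg and 26.00, 7.31 and 26.1 CPM in GFPpos libraries, from 4, 4313 and 1256 against 287, 94 and 502 counts. GFPneg replicates 2 and 3 were above all other libraries, and GFPneg replicate 1 was among the GFPpos libraries. The log2 fold change was -2.60 (SE 0.75, edgeR adjusted p = 0.493) over 6 libraries, and -3.07 (SE 0.49, adjusted p = 0.0122) without GFPneg replicate 1. Limma-voom also called it lower (adjusted p = 0.0384).

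Cd34 (chromosome 1, 194938819 to 194961279) lay at 45.9, 43.9 and 41.2 CPM in GFPneg and 59.7, 65.7 and 195 CPM in GFPpos libraries. It was the 1 tested member for which every GFPpos library was above every GFPneg library, an order seen in 9.53% of all genes tested. The log2 fold change was 1.30 (SE 0.54, edgeR adjusted p = 0.843), and 0.53 without GFPpos replicate 3. An antisense gene, Gm16897, overlaps its exons, and the strand setting of the counts is not given.

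Plvap, which encodes the diaphragm protein of fenestrated vessels and venules (chromosome 8, 71497765 to 71511752), had the highest level per kilobase of exon of all 36 genes. It lay at 672, 289 and 150.1 CPM in GFPneg and 433, 375 and 1120.5 CPM in GFPpos libraries (log2 fold change 0.81, SE 0.55, edgeR adjusted p = 1). The water channel gene Aqp1 lay at 167, 57.5 and 19.6 against 89.9, 88.5 and 139 CPM, the matrix gene Mmrn2 at 357, 83.4 and 61.6 against 136, 97.2 and 282 CPM, and Ecscr, a regulator of endothelial migration, at 138, 18.2 and 11.7 against 38.5, 34.4 and 67.5 CPM. These 4 genes shared an order: GFPneg replicate 1 above GFPpos replicates 1 and 2, and GFPneg replicates 2 and 3 below all GFPpos libraries. The tight junction gene Cldn5 (29.5, 19.4 and 14.6 against 20.5, 10.5 and 30.99 CPM) and the sialomucin gene Emcn (0, 41.8 and 18.4 against 20.6, 33.9 and 54.7 CPM), known from veins and capillaries, did not have it. Without GFPneg replicate 1, every GFPpos library was above both GFPneg libraries for 10 of 36 members (27.8%, against 11.8% of all genes) and below both for 8 (22.2%, against 13.9%). The 8 include Esm1 and Aplnr, which entered that fit through the GFPneg libraries, and nothing is read from these shares.

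**Figure D3:**
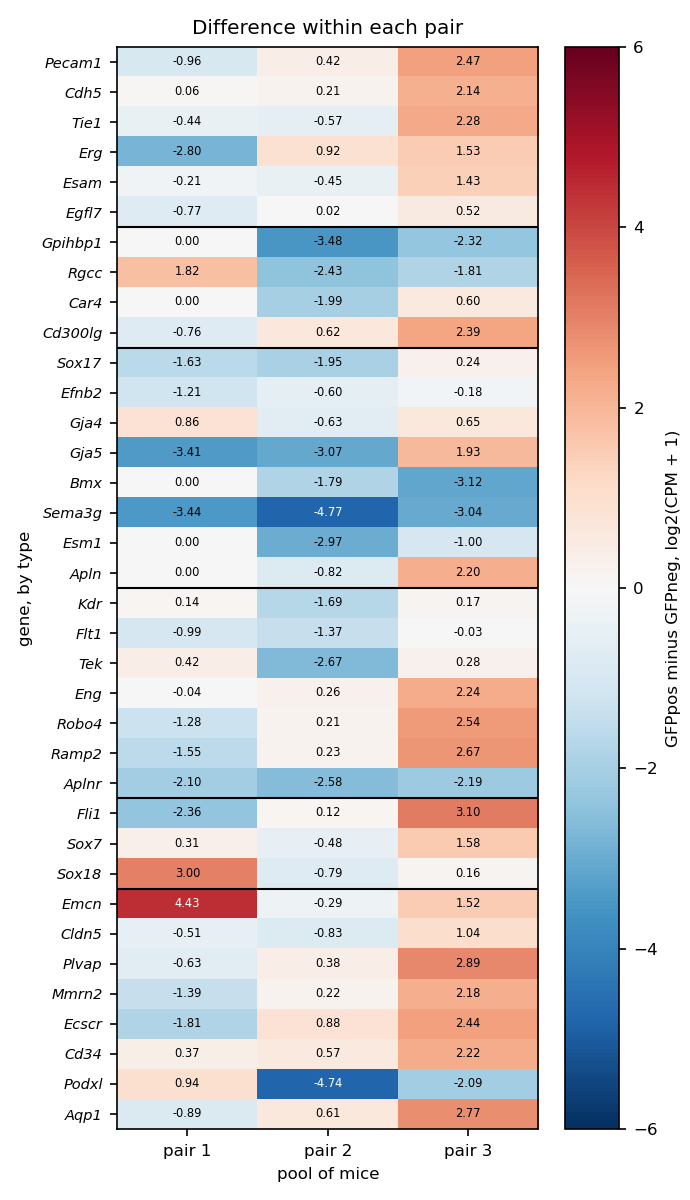
Difference between GFPpos and GFPneg within each pool, as log2(CPM + 1), for all 36 genes grouped by type, with red for higher and blue for lower in GFPpos. Pair 3 is red for the pan-endothelial genes, while Sema3g, Aplnr, Efnb2 and Flt1 are blue in all 3 pairs, the last only slightly in pair 3.

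Per kilobase of exon, which allows levels of different genes to be compared, Plvap stood at 186 CPM per kilobase in the mean of GFPneg and 324 in that of GFPpos libraries. Pecam1 (60.8 and 89.5) and Cdh5 (45.3 and 87.9) came next in both groups, and their ranges over libraries overlapped. The genes that were lower in GFPpos libraries were less abundant than these 3 on this scale, at 22.5 in GFPneg libraries for Rgcc, 21.2 for Podxl, 8.87 for Sema3g, 4.23 for Gpihbp1, 1.69 for Bmx and 1.46 for Aplnr.

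Because endothelial content differed between libraries, each gene was also set against the summed counts of the 6 pan-endothelial genes in the same library, with no test. These sums were 459, 11210 and 5128 counts in GFPneg and 8959, 8742 and 39306 in GFPpos libraries. The 4 capillary genes together gave 63.2, 155 and 128 counts per 1000 pan-endothelial counts in GFPneg and 71.9, 76.9 and 53.7 in GFPpos libraries. The 8 arterial or tip-cell genes gave 157, 409 and 362 against 123, 110.3 and 67.5, so that every GFPpos library lay below every GFPneg library. How many of all genes separate the groups on this scale was not computed, and nothing is read from such an order. In log2 terms the group difference was -0.69 for capillary and -1.56 for arterial or tip-cell genes. Efnb2 and Cd300lg hold large parts of these sums. Without Efnb2 the other 7 arterial or tip-cell genes gave 26.1, 245 and 127 against 18.2, 19.6 and 19.9. Without Cd300lg the other 3 capillary genes gave 0, 105 and 88.5 against 3.13, 11.2 and 4.63. Without GFPneg replicate 1 the log2 differences of the full sums were -1.08 and -1.99.

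Single genes of these sums differed in size. Efnb2 gave 131, 164 and 235 counts per 1000 in GFPneg and 104, 90.7 and 47.6 in GFPpos libraries, so that every GFPpos library was below every GFPneg library. The basal gene Cnn1 and the growth factor gene Vegfa, which are not members, had that order too, and Krt5 did not. Which cells the Efnb2 counts came from was not tested. Gpihbp1 gave 0, 28.3 and 34.5 counts per 1000 in GFPneg and 0, 0.801 and 1.20 in GFPpos libraries, and the 0 in GFPneg replicate 1 allows up to 6.54. Sema3g gave 6.54, 137 and 68.3 against 0, 2.86 and 1.48. Of the members outside both sums, Podxl gave 8.71, 385 and 245 against 32.03, 10.8 and 12.8, and the receptor genes 23.96, 295 and 234 against 49.00, 76.6 and 60.6 for Kdr and 98.04, 441 and 459 against 91.1, 144 and 103 for Flt1. GFPneg replicates 2 and 3 were above the other 4 libraries for Gpihbp1, Sema3g, Podxl, Kdr and Flt1. This order was not particular to endothelial genes. The basal epithelial genes Krt5 (961, 3013 and 2174 against 1314, 1687.5 and 349), Krt14 and Trp63 had it too, and Krt17 did not. The part of other cell types in this order was not tested. GFPneg replicate 1 lay below or among the GFPpos libraries for Gpihbp1, Podxl, Kdr and Flt1, and above them for Sema3g, from 3 counts.

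Eng, Plvap, Cd300lg and Cd34 had higher means in GFPpos libraries on this scale. Eng gave 93.7, 186 and 156 counts per 1000 in GFPneg and 169, 189 and 171 in GFPpos libraries. Plvap gave 447, 502 and 321 against 533, 552 and 549, with every GFPpos library above every GFPneg library, and Cd300lg 63.2, 49.9 and 39.2 against 68.8, 65.7 and 49.1. Cd34 gave 30.5, 76.3 and 88.1 against 73.6, 96.7 and 95.7, so that its separation in CPM was not present on this scale.

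**Figure D4:**
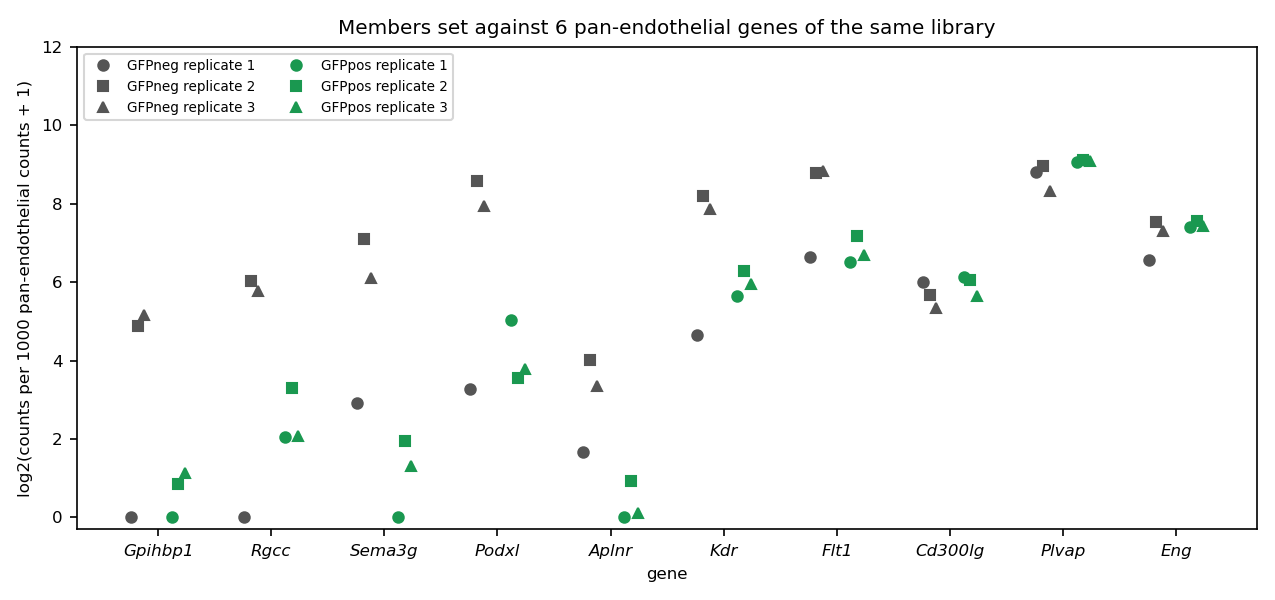
Counts of 10 members per 1000 counts of the 6 pan-endothelial genes in the same library, as log2(value + 1), in GFPneg (grey) and GFPpos libraries (green), with marker shape for the replicate. GFPneg replicates 2 and 3 stand above the other 4 libraries for the genes from Gpihbp1 to Flt1 and not for Cd300lg, Plvap or Eng.

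Genes of high endothelial venules were mostly higher in GFPpos libraries. Of 10 such genes, 2 of which are members described above (Cd34 and Podxl), 3 were called higher in edgeR's test over all genes (Madcam1, Ccl21a and Chst4), 7 with the replicate block, 4 by DESeq2 and 6 by limma-voom. Of all genes these settings called 0.0577%, 0.31%, 0.36% and 0.389% higher. The summed level of the list was 323 to 2721 CPM in GFPneg and 7958 to 15879 CPM in GFPpos libraries. Glycam1 alone made up most of this sum in every library except GFPneg replicate 2. It lay at 2380, 25.2 and 312 CPM in GFPneg and 7101, 7330 and 13977 CPM in GFPpos libraries. Which cells the Glycam1 counts came from was not tested. Summed luminal epithelial genes were higher in GFPpos libraries too (262 to 519.9 against 637 to 949 CPM). Per 1000 pan-endothelial counts, the chemokine gene Ccl21a gave 8.71, 2.77 and 21.8 in GFPneg and 341, 329 and 181 in GFPpos libraries. The sulphotransferase gene Chst4 gave 2.18, 0.892 and 0 against 67.98, 88.8 and 99.9, and the mucin gene Glycam1 1582, 43.7 and 668 against 8748, 10776 and 6850.5. GFPneg replicate 1, in which Gpihbp1 and Rgcc were at 0, had the highest GFPneg value for Glycam1.

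Genes of veins and venules were higher in part. Of 10, 0 passed edgeR's test over 6 libraries or DESeq2's, and in edgeR 3 (30%, against 2.38% of all genes) were higher at an unadjusted p below 0.05. The replicate block and limma-voom each called 2 higher (Selp and Lrg1), with 0.31% and 0.389% of all genes higher. The summed level was 1163 to 3059 CPM in GFPneg and 1939.9 to 3555 CPM in GFPpos libraries. Selp, the gene of the leukocyte-binding P-selectin, lay at 72.1, 21.5 and 12.6 CPM in GFPneg and 100.5, 183 and 313 CPM in GFPpos libraries (log2 fold change 2.69, SE 0.65, edgeR adjusted p = 0.287, and 0.00359 with the block). Nr2f2, which encodes a transcription factor of venous identity, lay at 334, 23.05 and 11.8 against 32.3, 44.7 and 102 CPM, and the von Willebrand factor gene Vwf at 643, 128 and 18.1 against 123, 114 and 273 CPM. GFPneg replicate 1 had the highest level of both.

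Of 8 lymphatic genes, edgeR called 1 higher (beside 0.0577% of all genes), Ccl21a, which is shared with high endothelial venules. At an unadjusted p below 0.05, 3 were lower (Flt4, Mmrn1 and Reln, 37.5%, against 2.88% of all genes). Over 6 libraries and without GFPneg replicate 1 the log2 fold changes were -3.85 and 0.27 for Mmrn1 and -2.35 and -0.76 for Flt4. For Reln they were -1.53 and -1.71. The direction for Mmrn1 therefore rested on GFPneg replicate 1, from 61 counts. Lyve1 (0.63) and Pdpn (0.77) had positive values over 6 libraries. The 8 genes had a summed level of 241 to 764 CPM in GFPneg and 460.1 to 649.6 CPM in GFPpos libraries. Reln, at 62.3, 110.1 and 101 against 33.1, 45.05 and 17.6 CPM, was lower in every GFPpos library than in every GFPneg library, an order seen in 3.63% of all genes tested. Prox1, the defining lymphatic transcription factor gene, lay at 42.6, 4.004 and 17.9 against 13.95, 5.37 and 21.9 CPM. Of 10 pericyte and vascular smooth muscle markers, 7 were tested, and 0 passed in edgeR or DESeq2. In edgeR 5 (71.4%, against 2.38% of all genes) were higher at an unadjusted p below 0.05. Limma-voom, and DESeq2 with the replicate block, called Notch3 higher, beside 0.389% and 0.656% of all genes. The summed level of the 10 markers was 42.6 to 166 CPM in GFPneg and 196 to 753 CPM in GFPpos libraries. Notch3 lay at 42.6, 21.7 and 61.5 against 155, 101 and 279 CPM and made up all of the sum in GFPneg replicate 1. Without it the sums were 0, 71.7 and 105 against 127, 95.2 and 474 CPM, and the groups overlapped. Rgs5, a pericyte gene, lay at 0, 27.2 and 29.5 against 38.8, 23.7 and 164 CPM and Cspg4 at 0, 18.4 and 16.3 against 21.9, 24.2 and 102 CPM, highest in GFPpos replicate 3 as were the pan-endothelial genes. Both were at 0 in GFPneg replicate 1, and Kcnj8 was at 0 in 4 libraries.

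Blood cell markers were near 0. The summed level of 10 leukocyte genes was 7.70 to 32.8 CPM in GFPneg and 5.62 to 24.8 CPM in GFPpos libraries, and Csf1r and Adgre1 were at 0 in all 6. Ptprc, the leukocyte common antigen gene, was at 0 in GFPneg libraries and at 0.544, 2.49 and 4.31 CPM in GFPpos libraries. Red blood cell genes reached no more than 1.44 CPM in sum in any library, and 5 platelet genes no more than 21.01 CPM. Fibroblast genes summed to 214 to 475 CPM in GFPneg and 118 to 147 CPM in GFPpos libraries, with Lum and Mfap5 at 0 in all 6. Basal epithelial genes summed to 9787 to 15182 and 6856 to 8303 CPM and luminal genes to 262 to 519.9 and 637 to 949 CPM. In edgeR's test over 6 libraries 0 genes of these 6 lists passed, with 5 basal and 3 fibroblast genes lower and 3 luminal genes higher at an unadjusted p below 0.05. These were 50%, 50% and 30% of the genes tested in each list, beside 2.88% of all genes lower and 2.38% higher. DESeq2 called 1 luminal gene, Kit, higher, beside 0.36% of all genes. Limma-voom called Kit higher and 3 basal genes lower (Cnn1, Col17a1 and Myh11), beside 0.389% of all genes higher and 0.173% lower. The part of each of these cell types in the endothelial differences was not tested.

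Ligands and partners of vascular growth signalling went both ways. Of 36 symbols, 35 were in the files and 33 were tested, of which 0 passed edgeR's test over 6 libraries. In that test 15 had positive and 18 negative log2 fold changes, with a median of -0.1. At an unadjusted p below 0.05, 10 were lower (30.3%, against 2.88% of all genes) and 1 higher (3.03%, against 2.38%). DESeq2 called 2 lower (Nrp1 and Vegfa), beside 0.346% of all genes, and limma-voom 1 (Vegfa), beside 0.173%. Nrp1 is a co-receptor gene for vascular endothelial growth factor and semaphorins. It lay at 508, 116 and 64.5 CPM in GFPneg and 9.24, 18.9 and 28.96 CPM in GFPpos libraries. The replicate block called it lower, beside 0.13% of all genes (log2 fold change -3.55, SE 0.72, edgeR adjusted p = 0.108, and 0.000662 with the block). Vegfa, the gene of the growth factor itself, lay at 298, 194 and 306 against 91.9, 71.7 and 59.9 CPM (log2 fold change -1.83, SE 0.42, edgeR adjusted p = 0.204). In both genes every GFPpos library was below every GFPneg library, an order seen in 3.63% of all genes tested.

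Without GFPneg replicate 1, edgeR called Vegfa (adjusted p = 0.0217), Notch4 (0.0475) and Cxcl12 (0.0475) lower, beside 0.19% of all genes. Notch4, an endothelial Notch receptor gene, lay at 3.28, 40.7 and 20.3 CPM in GFPneg and 3.53, 5.21 and 3.63 CPM in GFPpos libraries. The lymphatic growth factor gene Vegfc lay at 0, 12.6 and 22.5 against 0.272, 0.856 and 2.18 CPM and the guidance gene Slit2 at 45.9, 26.1 and 24.8 against 13.1, 5.68 and 2.80 CPM. Angpt2, the gene of a Tek ligand that activated endothelium releases, was the 1 gene that was higher at an unadjusted p below 0.05, at 36.1, 4.06 and 26.9 against 45.4, 63.6 and 177 CPM (log2 fold change 2.23, SE 0.77, edgeR adjusted p = 0.667). Every GFPpos library was above every GFPneg library for Angpt2, an order seen in 9.53% of all genes tested.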

How the data were processed

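Gene counts of 6 libraries were analysed. The authors deposited raw counts per gene symbol, 51826 symbols and 5 summary rows per library. The submitters' processing notes name HTSeq, TopHat2, cutadapt, FastQC and build mm10. No version, strand setting or annotation release was given in the sources used here, so the 7 members whose exons overlap another gene are uncertain. Positions and exon lengths are from GENCODE M21, and promoters from RefSeq (GRCm38.p6). Summary rows were left out.

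The counts went into edgeR 4.0.16 (R 4.3.3) with filterByExpr, TMM scaling, group as the only term and the quasi-likelihood test (Benjamini-Hochberg adjustment over 13873 genes, or 15274 without GFPneg replicate 1). CPM used TMM-scaled library sizes, and pair differences log2(CPM + 1). Alternatives used DESeq2 1.42.0, limma 3.58.1, the replicate block, other scaling and filters, and leave-out fits. The fractions of a pair come from 1 pool of mice, so replicate numbers pair the samples by design. Their deviations from group means correlated at -0.0155, 0.0953 and 0.0107. P-values of the fits with group as the only term measure the spread between pools and do not use the pairing. Those of the block fits measure the spread of the differences within pools. The scripts were tested on simulated data.

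The members, lists and tests were chosen with earlier results of these data known. All 36 members are named. Of the lists of other genes, up to 4 of each marker list in a fixed order and the 6 pathway genes with the smallest p are named, and Lrg1, Kit, Cxcl12, Adgre1, Lum, Mfap5, Notch3, Mmrn1, Reln, Cnn1, Col17a1 and Myh11 were named after their values were seen.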

Additional observations from a re-analysis of the deposited data

How the results depend on the processing

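Over all genes, 8 were higher and 1 lower with 6 libraries. These counts were 43 and 18 with the replicate block, 50 and 48 with DESeq2, 54 and 24 with limma-voom, 91 and 61 with the block in DESeq2, 65 and 236 without the filter on counts and 386 and 216 with the replicate block and replicate 1 left out, and 5 were higher with library size only or with at least 5 CPM in 3 libraries. Leaving out 1 library or 1 pair gave 2 to 63 higher and 1 to 68 lower. Members called lower numbered 1 with the replicate block, 1 with DESeq2, 2 with limma-voom, 2 with the block in DESeq2, 2 without the filter on counts and 4 with the replicate block and replicate 1 left out, and 0 to 2 over the leave-out fits, against 0. In edgeR over 6 libraries the replicate block changed the call of 1 member, Sema3g. In DESeq2 it added Aplnr, and with replicate 1 left out it added 12 members higher and 3 lower to Sema3g. Members called higher numbered 12 with the replicate block and replicate 1 left out, and 0 in the other settings. The median log2 fold change of the capillary genes was -0.81 with at least 5 CPM in 3 libraries, where Gpihbp1 was not tested. That of the arterial or tip-cell genes was -2.0 with the block in DESeq2 and ranged from -3.39 to -0.31 over the leave-out fits. The log2 fold changes of 6 members turned sign in settings that kept all libraries or used the block. Signs turned with the replicate block for Erg 0.08, Sox18 0.30, Cldn5 -0.11 and Ecscr 0.62. With the block in DESeq2 the sign turned for Erg 0.07, Sox18 0.27, Cldn5 -0.14 and Ecscr 0.60. Signs turned with limma-voom for Erg 0.91, Egfl7 0.27 and Ecscr 1.44. With library size only the sign turned for Erg 0.18, Egfl7 0.35 and Ecscr 0.69. Signs turned with the replicate block and replicate 1 left out for Erg 1.27, Egfl7 0.30 and Ecscr 1.74. With DESeq2 the sign turned for Cldn5 -0.01 and Mmrn2 -0.07. Signs turned with RLE factors for Cldn5 -0.03 and Mmrn2 -0.03. With at least 5 CPM in 3 libraries the sign turned for Cldn5 -0.02. Over the leave-out fits the log2 fold change took both signs for 19 members, with ranges of Pecam1 -0.46 to 1.66, Tie1 -0.49 to 0.96, Erg -1.83 to 1.39, Esam -0.33 to 0.77, Egfl7 -0.44 to 0.36, Cd300lg -0.25 to 1.64, Gja4 -0.27 to 1.16, Kdr -1.22 to 0.13, Tek -1.36 to 0.32, Robo4 -0.64 to 1.43, Ramp2 -0.97 to 1.68, Fli1 -1.21 to 1.72, Sox7 -0.19 to 1.13, Sox18 -0.63 to 0.86, Cldn5 -0.63 to 0.33, Plvap -0.24 to 1.79, Mmrn2 -0.89 to 1.40, Ecscr -1.03 to 1.79 and Aqp1 -0.30 to 1.57. The cause of these shifts was not tested. Sema3g, Podxl, Aplnr, Gpihbp1, Rgcc, Bmx, Cdh5 and Cd34 kept their sign in every setting that tested them. The depth of GFPneg replicate 1 limits each member under about 10 CPM in that library.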
